A study of Mus musculus with 14 samples.

Results

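Megakaryocyte and platelet genes were examined in mouse bone marrow after enrichment of its hematopoietic stem and progenitor cells (HSPCs) and in cells transformed by MLL-AF9. The set was a list of 30 mouse genes known for their use in megakaryocytes and platelets, and all 30 were among the 52550 genes of the count table. A count above 0 was found for 28 of them. RNA-seq of ribosome-depleted total RNA covered 14 samples. They were 4 samples of wild-type (WT) HSPCs, 4 of HSPCs from mice without the microRNA gene Mir139 (Mir139KO), and 6 MLL-AF9 samples made from WT HSPCs.

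All cells came from C57BL/6 mice. HSPCs were taken from femur and tibiae of animals 8 to 20 weeks old with a commercial lineage-depletion set, and the Mir139KO allele had been made by CRISPR with paired nicking. For MLL-AF9, WT HSPCs were grown overnight with SCF, GM-CSF and the interleukins IL-6 and IL-3, transduced with the retrovirus pMSCV-MLL-AF9-neo (3 samples) or pMSCV-MLL-AF9-puro (3 samples), selected on the matching drug and replated repeatedly in semi-solid medium. After replating, the cells were expanded further in medium with serum, SCF, GM-CSF, IL-6 and IL-3. MLL-AF9 is a leukemia-associated fusion of the histone methyltransferase MLL with AF9, here driven by a retroviral promoter. No sample was of HSPCs grown and selected without MLL-AF9, so the fusion gene, the culture and the selection cannot be told apart in any comparison of MLL-AF9 cells with HSPCs. The labels do not say whether replicates came from separate mice or separate transductions, and p-values measure only the spread between these samples.

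Megakaryocytes are the large marrow cells that shed platelets. They arise from progenitors shared with the erythroid lineage, and the transcription factors GATA1, FLI1, RUNX1, TAL1, GFI1B and NFE2 are known to control their genes. The hormone thrombopoietin supports their growth. The products of the genes described here are the granule cargo that platelets release, the surface receptors by which they stick and aggregate, the receptors and channels that sense agonists, and the tubulin, granule-traffic and signalling proteins inside the cell.

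Most of these genes were lower together in MLL-AF9 cells, and their promoters are shown for that reason. RefSeq promoters (GRCm38.p6, 250 bases before to 50 after the annotated start) were found for 25 of the 30 genes. Letters bound by GATA factors (AGATAA as one form and AGATAG as another, with TGATAA and also its variant TGATAG, on either strand) were in 10 of these 25 genes (40%), against 33.0% of all 27025 genes with a promoter. Letters bound by ETS factors such as FLI1 (CGGAAG as one form and AGGAAG as another, on either strand) were in 14 (56%), against 49.8% of all. Both motifs were in 5 (20%), against 14.4% of all. These are matches of letters, not sites shown to be used. The counts include genes that did not pass as lower in MLL-AF9 cells than in WT HSPCs. Among them were Cd9, F13a1, F5, Mylk and Selp for ETS letters and Clec1b and P2rx1 for GATA letters. Whether the shares differ from those of all genes was not tested. The promoters of the 4 measured genes that hold both are printed 5′ to 3′ on the gene's strand, with motif matches in capitals.
Pf4 (platelet factor 4, chr5:90772185-90772484, plus strand): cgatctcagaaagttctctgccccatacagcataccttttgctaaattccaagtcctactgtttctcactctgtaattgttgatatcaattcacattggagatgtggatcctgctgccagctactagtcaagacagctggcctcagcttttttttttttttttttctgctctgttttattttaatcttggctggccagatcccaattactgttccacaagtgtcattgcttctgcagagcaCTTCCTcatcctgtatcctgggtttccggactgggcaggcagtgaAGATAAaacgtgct
Gp1ba (glycoprotein Ib alpha, chr11:70638872-70639171, plus strand): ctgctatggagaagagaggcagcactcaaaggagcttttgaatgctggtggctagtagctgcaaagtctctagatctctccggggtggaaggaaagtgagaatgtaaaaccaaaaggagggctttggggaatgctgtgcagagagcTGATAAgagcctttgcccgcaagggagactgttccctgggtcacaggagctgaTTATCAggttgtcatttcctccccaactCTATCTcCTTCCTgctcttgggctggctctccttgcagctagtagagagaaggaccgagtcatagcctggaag
Gp1bb (glycoprotein Ib beta, chr16:18622354-18622653, minus strand): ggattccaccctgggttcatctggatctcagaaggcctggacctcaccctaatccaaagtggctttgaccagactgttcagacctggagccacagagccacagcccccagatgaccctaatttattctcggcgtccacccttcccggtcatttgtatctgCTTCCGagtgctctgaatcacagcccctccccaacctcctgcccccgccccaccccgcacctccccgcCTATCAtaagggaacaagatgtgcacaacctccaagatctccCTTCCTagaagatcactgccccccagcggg
Gp5 (glycoprotein V, chr16:30310732-30311031, minus strand): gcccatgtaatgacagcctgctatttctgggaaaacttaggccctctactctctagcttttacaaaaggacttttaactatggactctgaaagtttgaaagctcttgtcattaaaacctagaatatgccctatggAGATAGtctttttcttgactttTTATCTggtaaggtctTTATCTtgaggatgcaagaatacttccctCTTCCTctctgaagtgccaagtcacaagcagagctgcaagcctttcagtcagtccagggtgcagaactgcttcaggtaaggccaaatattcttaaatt

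Depth was 35016668 to 45877994 counts per sample. Levels are given as CPM (each count relative to the total of its library) scaled by TMM factors over all 14 libraries, and 3 counts, taken as the smallest level that could be seen, were 0.0550 to 0.0600 CPM in MLL-AF9 libraries and 0.0629 to 0.127 CPM in HSPC libraries. Markers of stem and multipotent progenitors were present in all HSPC libraries, with a summed level of 268 to 416 CPM over 9 genes, beside markers of other cells (erythroid, 1092 to 2287 CPM over 11 genes; neutrophil, 4553 to 22416 CPM over 10 genes). Thus the HSPC samples were enriched cells rather than a pure population. In such bulk samples, fewer cells of a type and less RNA per cell cannot be told apart. The gene Gm26917, annotated as a long noncoding RNA, took 17.0 to 35.4% of counts in HSPC libraries and 7.55 to 10.4% in MLL-AF9 libraries. Which RNA the reads counted there came from was not tested. Each HSPC genotype had 2 libraries under 25% (low share) and 2 over it (high share).

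The table could not measure every gene. F2rl2 (protease-activated receptor 3, a thrombin receptor) and P2ry12 (the ADP receptor that is the target of clopidogrel) were listed at 0 in all 14 libraries. F2rl2 (chromosome 13, 95696853 to 95702739) lies wholly inside the annotated body of Iqgap2, and P2ry12 (chromosome 3, 59216272 to 59262871) wholly inside that of Med12l. Of 1261 protein-coding genes with no base outside other gene bodies, 1228 (97.4%) were at 0 in every library, against 20.2% of the 12012 that share no base. A value of 0 for F2rl2 and P2ry12 is therefore no measure of their absence. For Gp1bb, 185 of its 2087 bases lie outside other genes, so its counts may come from a small part of it.

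**Figure D1:**
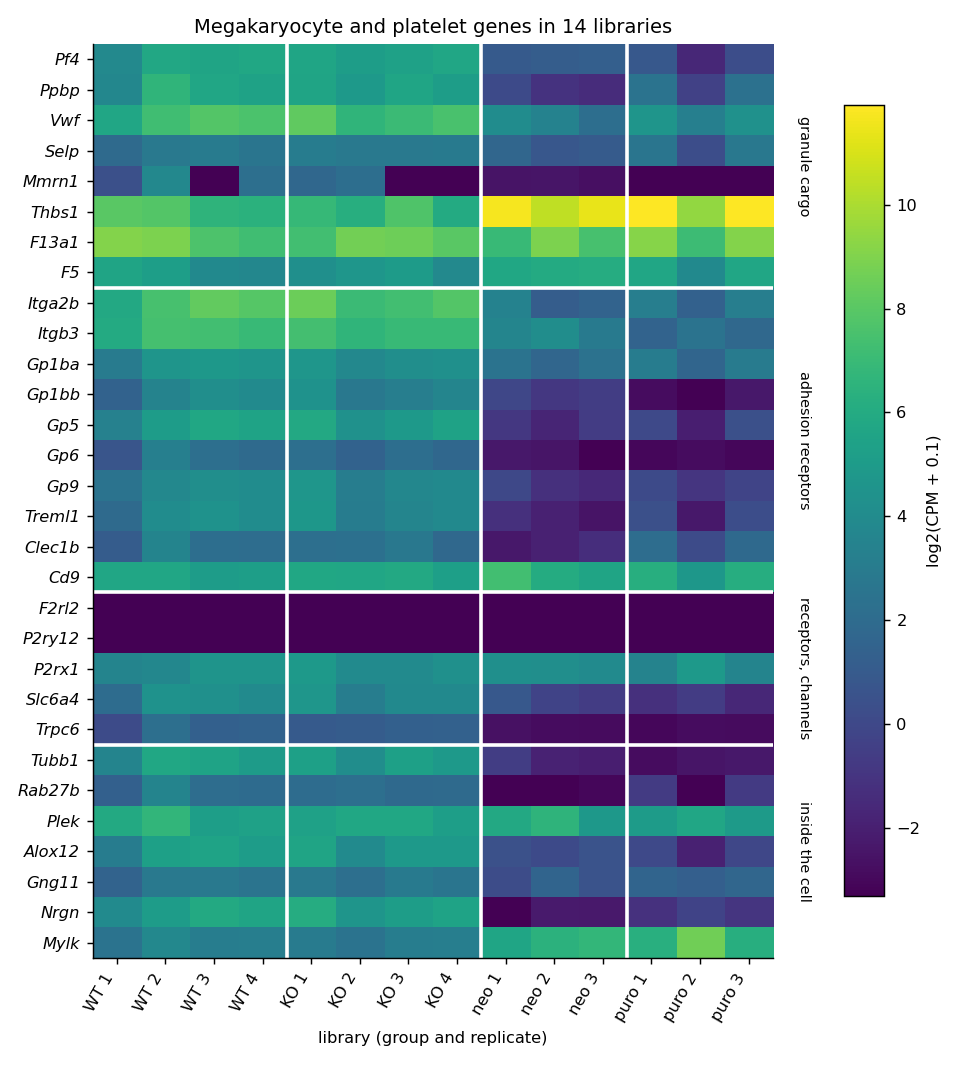
Level of the 30 genes (rows, by role) in 14 libraries (columns; KO, Mir139KO), as log2(CPM + 0.1). Most genes of the adhesion and intracellular groups are dark in the 6 MLL-AF9 libraries, whereas Thbs1 and Mylk are brighter there than in all 8 HSPC libraries; F2rl2 and P2ry12 are listed at 0 throughout.

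To see how platelet genes behave in transformed cells, MLL-AF9 cells were compared with WT HSPCs. Most genes of the megakaryocyte program were lower, with log2 fold changes from -7.57 to -1.33 among those called, and the tubulin gene Tubb1, the calmodulin-binding gene Nrgn and the collagen receptor gene Gp6 had the lowest over all 6 cultures and without a correction for GC content. Thbs1 (thrombospondin-1) and Mylk (myosin light chain kinase) were higher. Of the 30 genes, 27 passed the filter on low counts. In edgeR's quasi-likelihood test with adjustment over 17077 genes, 18 of the 27 were lower and 2 were higher at an adjusted p under 0.05, and 7 were not called. Over all genes tested, 29.4% were lower and 32.8% higher. The median log2 fold change was -4.48 over the 27 genes and 0.14 over all genes. The levels did not overlap between groups for 16 genes that were lower and 2 that were higher, against 24.5% and 26.0% of all genes.

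Among granule cargo, Pf4, a chemokine of alpha granules, had 14.1, 55.7, 48.4 and 54.6 CPM in WT HSPC replicates 1 to 4 and 50.1, 35.7, 41.6 and 51.7 CPM in the 4 Mir139KO libraries. In MLL-AF9 cells it had 0.220, 1.78 and 2.35 CPM at the lowest, median and highest. No MLL-AF9 library reached the lowest HSPC library, and Pf4 fell by 4.79 on the log2 scale (SE 0.58, adjusted p = 4.33e-05). Ppbp, its neighbour on chromosome 5 at a distance of 2371 bases and the precursor of several platelet chemokines, had 13.1, 98.3, 52.4 and 43.6 CPM in WT HSPCs against 0.275, 0.815 and 5.49 CPM in MLL-AF9 cells. It fell by 4.61 (SE 0.89, adjusted p = 0.000889). Vwf, which encodes the factor that tethers platelets to collagen, had 156 ± 75.4 CPM in WT HSPCs (SD, n = 4) and 14.3 ± 7.43 CPM in MLL-AF9 cells (SD, n = 6), which is -3.46 on the log2 scale (SE 0.50, adjusted p = 0.000135). Although lower, Vwf remained above 4 CPM in every culture.

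The other cargo genes were mixed. Thbs1, an adhesive matrix glycoprotein also made by many other cells, had 254, 231, 96.1 and 84.9 CPM in WT HSPCs. In MLL-AF9 cells it had 700, 3056 and 3857 CPM at the lowest, median and highest. Every MLL-AF9 library was above every HSPC library, and Thbs1 rose by 3.99 on the log2 scale (SE 0.60, adjusted p = 0.000175), or 15.8-fold. For Selp, the P-selectin gene, the groups overlapped and the log2 fold change of -0.85 (SE 0.52, adjusted p = 0.166) was not called. Its neighbour F5, coagulation factor V, lies 1811 bases away on chromosome 1 and had the opposite sign, 0.84 (SE 0.46, adjusted p = 0.127), also not called. F13a1, the transglutaminase that cross-links fibrin and a gene that monocytes and macrophages also use, spread from 153 to 553 CPM in WT HSPCs and from 121 to 573 CPM in MLL-AF9 cells (log2 fold change -0.04, SE 0.54, adjusted p = 0.956). Mmrn1 (multimerin-1, a factor V-binding protein) had 58, 583, 0 and 124 counts in WT HSPCs, 78, 154, 0 and 0 in Mir139KO HSPCs and 0 to 4 counts in MLL-AF9 cells, and did not pass the filter. Without the filter it was called, with -6.98 on the log2 scale (adjusted p = 0.00129).

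**Figure D2:**
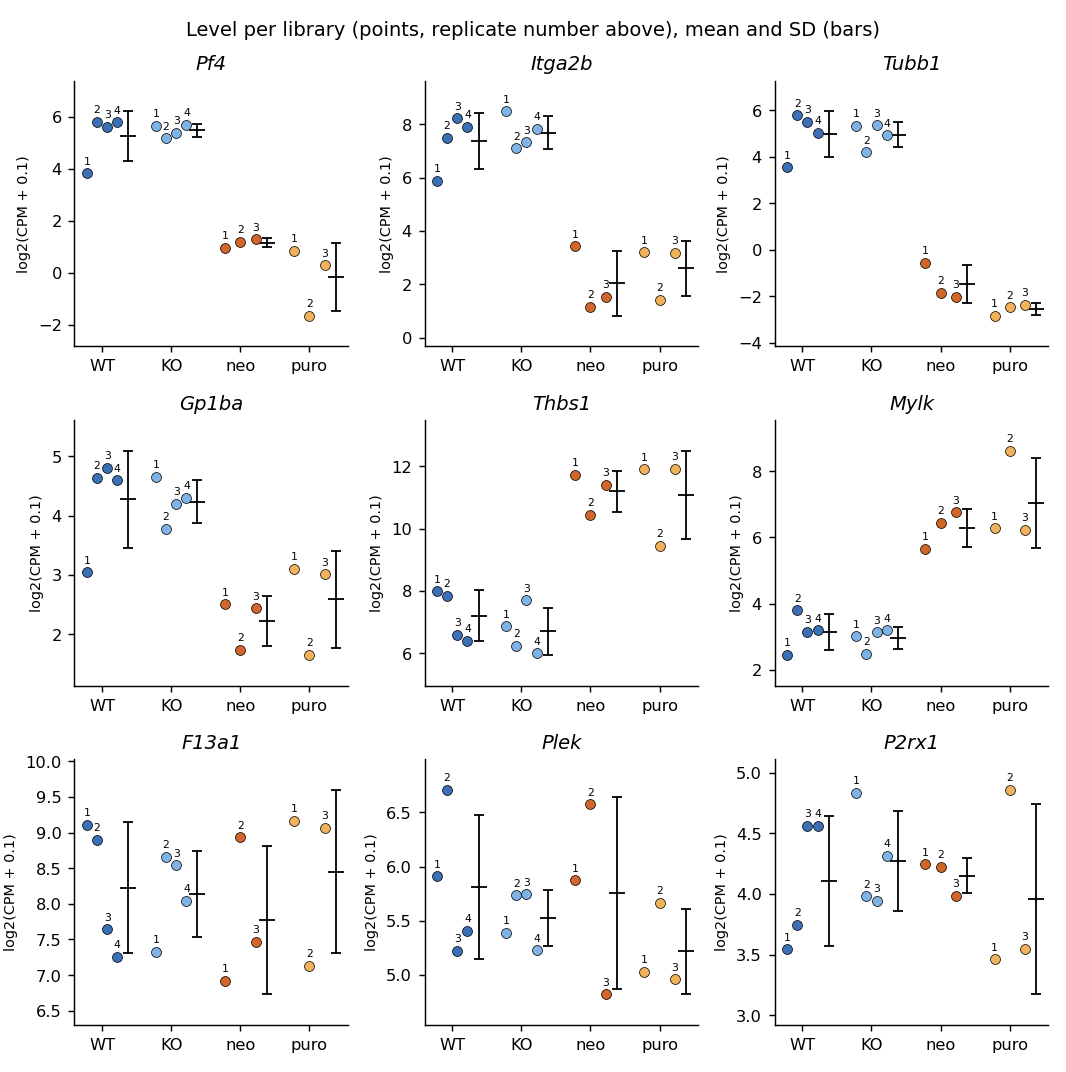
Level of 9 genes in each library as log2(CPM + 0.1), with the mean and SD of each group beside the points (KO, Mir139KO HSPC; neo and puro, MLL-AF9 cultures by vector). Pf4, Itga2b and Tubb1 are lower and Thbs1 and Mylk higher in all 6 MLL-AF9 libraries than in all 8 HSPC libraries, whereas F13a1, Plek and P2rx1 overlap.

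Among the adhesion receptors, 8 of 10 genes were lower and none was higher. The fibrinogen receptor is made by Itga2b (CD41, an early mark of the lineage) and Itgb3 (CD61). Itga2b had 58.8, 179, 299 and 239 CPM in WT HSPCs and 358, 136, 160 and 226 CPM in Mir139KO HSPCs, against 2.14, 5.90 and 10.6 CPM in MLL-AF9 cells. It fell by 5.01 (SE 0.61, adjusted p = 4.44e-05). Itgb3 had 64.4, 168, 158 and 122 CPM in WT HSPCs and 2.74, 6.62 and 17.5 CPM in MLL-AF9 cells, and fell by 3.99 (SE 0.52, adjusted p = 7.38e-05). Thus both chains of this integrin were lower, without overlap.

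The receptor for von Willebrand factor has 4 chains, and their genes were lower to different degrees. Gp5 had 10.4, 34.1, 53.6 and 45.6 CPM in WT HSPCs against 0.140, 0.507 and 1.20 CPM in MLL-AF9 cells and changed by -5.96 (SE 0.65, adjusted p = 2.32e-05). Gp9 changed by -4.51 (SE 0.51, adjusted p = 2.77e-05) and Gp1bb by -5.15 (SE 0.96, adjusted p = 0.000715). Gp1ba, the chain that binds the factor, had 8.14, 24.8, 28.0 and 24.1 CPM in WT HSPCs and 3.04, 5.45 and 8.47 CPM in MLL-AF9 cells. Its change of -1.94 (SE 0.41, adjusted p = 0.00158) was the smallest of the 4, and the highest MLL-AF9 library was above WT replicate 1. Whether Gp1ba differed from its partners was not tested.

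Gp6, the signalling receptor for collagen, had 1.49, 9.64, 4.69 and 3.82 CPM in WT HSPCs and 0 to 5 counts per MLL-AF9 library and changed by -6.78 (SE 0.74, adjusted p = 2.14e-05). Treml1, a receptor stored in alpha granules, changed by -4.90 (SE 0.83, adjusted p = 0.000387). Clec1b, the receptor for podoplanin, had 2.08, 11.8, 4.39 and 4.33 CPM in WT HSPCs and 0.0969, 0.656 and 4.34 CPM in MLL-AF9 cells. The groups overlapped, and its log2 fold change of -1.83 (SE 0.93, adjusted p = 0.105) was not called. For the 3 neo cultures alone it was -4.91 (SE 0.76, adjusted p = 0.000516) and for the 3 puro cultures alone -0.88 (SE 0.68, adjusted p = 0.290). With the GC correction it was -4.03 (SE 1.01, adjusted p = 0.00525), and DESeq2 (adjusted p = 0.0398) and limma-voom (adjusted p = 0.0204) also called it. Cd9, a tetraspanin found on many cell types, was not called (0.75, SE 0.42, adjusted p = 0.138), although Vwf, 51982 bases away on chromosome 6, was lower.

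Of the agonist receptors, channels and transporters, Trpc6 (a cation channel) and Slc6a4 (the serotonin transporter, by which platelets load serotonin) were lower. Trpc6 had 1.01, 4.56, 2.47 and 2.68 CPM in WT HSPCs and 1 to 3 counts in each MLL-AF9 library, close to the limit of detection, and fell by 6.03 (SE 0.51, adjusted p = 3.73e-06). Slc6a4 had 4.05, 21.4, 20.1 and 15.2 CPM in WT HSPCs against 0.228, 0.555 and 1.71 CPM, and fell by 4.48 (SE 0.61, adjusted p = 9.85e-05). P2rx1, the ATP-gated channel, had 11.6, 13.3, 23.6 and 23.5 CPM in WT HSPCs and 10.9, 17.2 and 28.9 CPM in MLL-AF9 cells. Its log2 fold change was -0.07 (SE 0.34, adjusted p = 0.858), and the groups overlapped throughout.

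Inside the cell, 5 of 7 genes were lower, 1 was higher and 1 was not called. Tubb1, the beta-tubulin of the platelet marginal band, had 11.6, 54.3, 45.1 and 32.5 CPM in WT HSPCs and 39.7, 18.0, 40.4 and 30.2 CPM in Mir139KO HSPCs. It had 2 to 30 counts in MLL-AF9 libraries (0.0400 to 0.582 CPM) and fell by 7.57 (SE 0.72, adjusted p = 8.58e-06). Nrgn, a calmodulin-binding protein, had 15.5, 34.7, 61.1 and 48.1 CPM in WT HSPCs against 0 to 37 counts in MLL-AF9 libraries and fell by 7.12 (SE 0.82, adjusted p = 3.06e-05). With the GC correction, Gp6 (-7.95) and Rab27b (-7.03) were lower than Tubb1 (-6.97) and Nrgn (-6.24), and for neo cultures alone Rab27b (-9.22) was the lowest of these 4 genes.

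Alox12, the platelet 12-lipoxygenase, changed by -5.12 (SE 0.58, adjusted p = 2.96e-05). Rab27b, a small GTPase of dense granule traffic, changed by -4.97 (SE 1.16, adjusted p = 0.00289), the widest error of the 27 genes, and 53 of its 54 counts in MLL-AF9 cells were in puro replicates 1 and 3. Gng11, a G protein gamma subunit, changed by -1.33 (SE 0.40, adjusted p = 0.0127) with groups that overlapped, and the call was lost after correction for GC content (-0.79, adjusted p = 0.0963) and against the low-share WT libraries alone (-1.13, adjusted p = 0.101), among other settings. Plek (pleckstrin, a protein kinase C substrate of platelets and leukocytes) was not called (-0.32, SE 0.40, adjusted p = 0.495). With the GC correction it was lower by -1.65 on the log2 scale (SE 0.33, adjusted p = 0.00136).

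Mylk, which phosphorylates myosin light chains, had 5.37, 13.8, 8.81 and 9.04 CPM in WT HSPCs and 7.99, 5.53, 8.68 and 9.07 CPM in Mir139KO HSPCs. In MLL-AF9 cells it had 50.2, 82.2 and 393 CPM at the lowest, median and highest. All 6 cultures were above all 8 HSPC libraries, and Mylk rose by 3.79 on the log2 scale (SE 0.62, adjusted p = 0.00032). Its level in puro replicate 2 was 393 CPM, against 108 CPM in the next culture.

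MLL-AF9 cells were next compared with Mir139KO HSPCs, which share the MLL-AF9 libraries with the comparison above and are not independent of it. Of 27 genes tested, 19 were lower and 3 higher, and 5 were not called. Over all 16953 genes tested, 31.9% were lower and 37.3% higher. Levels did not overlap for 19 genes that were lower and 2 that were higher, against 27.9% and 30.1% of all genes. The median log2 fold change of the 27 genes was -4.27, against 0.16 for all genes.

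For the genes with the lowest values the fold changes were close to those against WT HSPCs. Tubb1 changed by -7.43 (SE 0.63), Nrgn by -7.28 (SE 0.76), Gp6 by -6.41 (SE 0.60), Gp5 by -6.07 (SE 0.58), Trpc6 by -5.78 (SE 0.38), Itga2b by -5.22 (SE 0.54), Gp1bb by -5.22 (SE 0.88), Alox12 by -5.06 (SE 0.50), Treml1 by -5.00 (SE 0.77) and Pf4 by -4.86 (SE 0.49). Adjusted p-values were between 3.02e-07 (Trpc6) and 0.000232 (Gp1bb) for these 10 genes. Gp9 (-4.73), Slc6a4 (-4.57), Rab27b (-4.54), Ppbp (-4.27), Itgb3 (-4.00), Vwf (-3.66), Gp1ba (-1.81) and Gng11 (-1.49) were also lower, with the largest adjusted p at 0.00247 for Gng11. The call of Gng11 was lost with total counts as the only scaling (-0.76, adjusted p = 0.0868) and with GC correction and replicate block (-0.96, adjusted p = 0.080). Thbs1 (4.48, SE 0.59, adjusted p = 3.65e-05) and Mylk (4.03, SE 0.60, adjusted p = 9.06e-05) were higher.

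A further pair of granule genes passed here but not against WT HSPCs. Selp was lower (-1.15, SE 0.48, adjusted p = 0.047), and its call was lost on leaving out any one of 8 of the 10 libraries (all but puro replicates 1 and 3). F5 was higher (1.12, SE 0.38, adjusted p = 0.0195), and its call was lost with the GC correction (0.69, adjusted p = 0.0964), with the replicate block (0.95, adjusted p = 0.073) and without Mir139KO replicate 1 or 4. Not called were Clec1b (-1.64, adjusted p = 0.111), Cd9 (0.52, adjusted p = 0.260), P2rx1 (-0.23, adjusted p = 0.519), F13a1 (0.15, adjusted p = 0.791) and Plek (0.05, adjusted p = 0.896). Clec1b was called with the GC correction (-3.92, adjusted p = 0.00411), in limma-voom (-2.90, adjusted p = 0.0106), without puro replicate 1 (-2.24, adjusted p = 0.0347) and for neo cultures alone (-4.72, adjusted p = 4.03e-06), and Plek was called with the GC correction (-1.45, adjusted p = 0.00205).

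**Figure D3:**
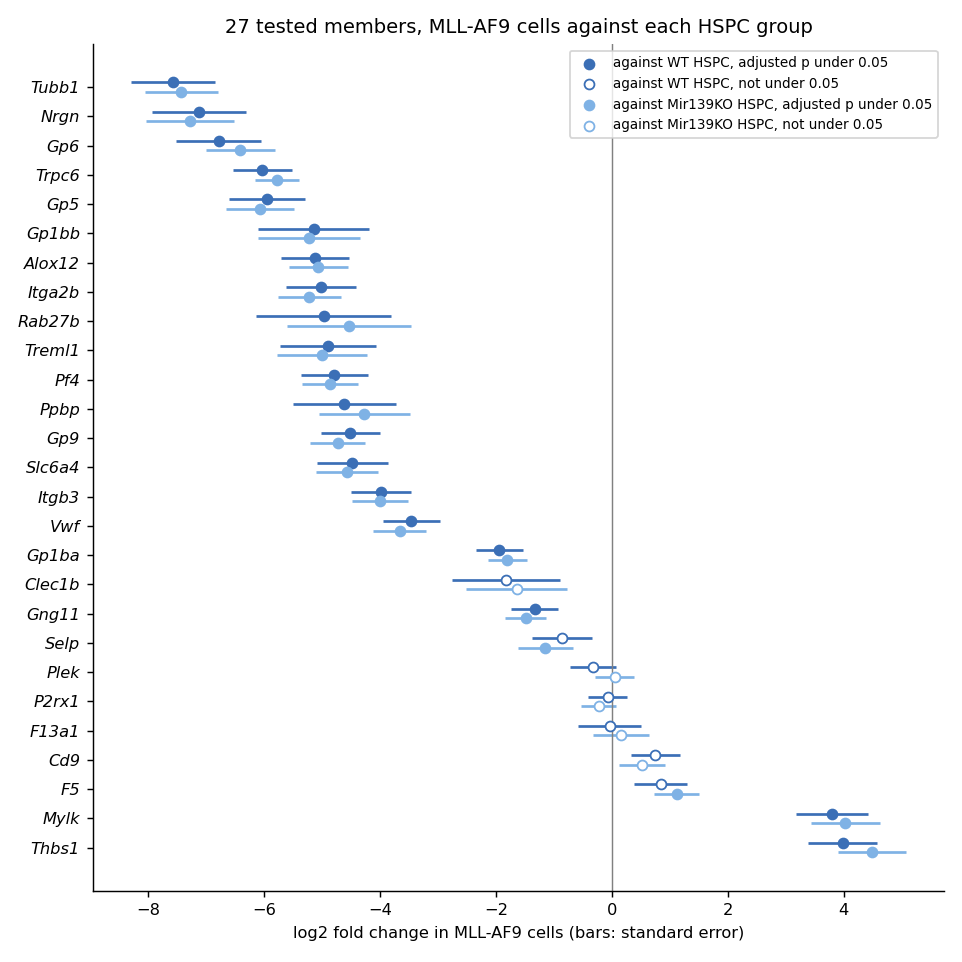
Log2 fold change of 27 genes in MLL-AF9 cells (x axis; bars, standard error) against WT HSPCs (dark) and Mir139KO HSPCs (light), both with the same 6 MLL-AF9 libraries. Filled points passed an adjusted p under 0.05; the genes run from Tubb1 at -7.57 to Thbs1 at 3.99 against WT HSPCs.

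The genes were not alone in this direction, because several blood lineages were lower in MLL-AF9 cells. Summed markers of the erythroid lineage were 1092 to 2084 CPM in WT HSPCs and 2.14 to 4.46 CPM in MLL-AF9 cells, and all 10 of the 11 markers that were tested were lower, with Hba-a2 and Hbb-bs at 0 counts in MLL-AF9 cells (Alas2 was at 0 in every library). Mast cell and basophil markers went from 759 to 1918 CPM down to 11.4 to 66.8 CPM (7 of 7 tested were lower), and marrow stroma markers from 330 to 2421 CPM down to 2.40 to 16.8 CPM (7 of 8). Monocyte and macrophage markers were 856 to 1245 CPM against 89.4 to 348 CPM (10 of 12 lower, 1 higher). Neutrophil markers were 4553 to 14959 CPM against 2479 to 4201 CPM (4 of 10 lower). B cell markers (34.3 to 66.8 against 1.58 to 6.34 CPM) were lower for 6 of 6 tested and T and NK cell markers (58.2 to 107 against 4.86 to 12.7 CPM) for 7 of 8. Stem and progenitor markers were 287 to 395 CPM against 50.5 to 134 CPM (6 of 9 lower). The shares over all genes tested were 29.4% lower and 32.8% higher, and the neutrophil markers were near the former. Vcam1 is on both the stroma list and the monocyte and macrophage list, so these lists are not separate.

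Vwf, Selp, Thbs1 and Mmrn1 are also genes of endothelial cells. Endothelial markers summed to 111 to 153 CPM over 12 genes in WT HSPCs, 132 to 138 CPM in Mir139KO HSPCs, 20.5 to 44.5 CPM in neo and 74.4 to 119 CPM in puro cultures, with Sox17 at 0 in MLL-AF9 cells. Of 11 endothelial markers tested, 8 were lower in MLL-AF9 cells than in WT HSPCs and 0 were higher. The part of each cell type in the change of the platelet genes was not tested.

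The wider megakaryocyte pathway was read from 7 lists with 116 genes in all. Of these genes, 8 (Cavin2, Gnaz, Ikzf5, Lcp2, Lyl1, Srf, Timp3 and Zfpm1) were at 0 in every library, and all 8 lie wholly inside other gene bodies. Among 18 transcription regulators, 14 were tested, 5 were lower and 5 higher, with a median log2 fold change of 0.38. For this and the other lists, the shares over all genes are those given above, 29.4% lower and 32.8% higher. The lower ones included the factors that megakaryocytes share with erythroid cells. Tal1 fell from 175 ± 32.5 to 0.213 ± 0.206 CPM (log2 fold change -9.70, SE 0.72), Gfi1b from 145 ± 76.3 to 0.322 ± 0.191 CPM (-8.83, SE 0.65) and Gata1 from 138 ± 71.0 to 0.328 ± 0.239 CPM (-8.72, SE 0.63), with adjusted p-values up to 1.84e-06 (SD, n = 4 and n = 6). Those that rose most were Meis1 (19.6 ± 7.81 to 463 ± 370 CPM), Runx1 (201 ± 102 to 955 ± 224 CPM) and Fli1 (118 ± 71.4 to 493 ± 89.8 CPM), by 4.55 (SE 0.71), 2.24 (SE 0.38) and 2.04 (SE 0.40) on the log2 scale, with adjusted p-values up to 0.000975.

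In thrombopoietin signalling, 5 of 11 tested genes were lower and 2 higher (median 0.15). The transcription factors Stat5a (-2.26, SE 0.27, adjusted p = 4.33e-05) and Stat5b (-1.14, SE 0.27, adjusted p = 0.00317) were lower. The kinase Lyn (1.30, SE 0.41, adjusted p = 0.0153) and the feedback inhibitor Cish (2.67, SE 0.43, adjusted p = 0.000282) were higher.

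Of 20 further platelet receptors, all tested, 11 were lower and 5 higher (median -1.21). Pear1 changed by -4.26 (SE 0.71) and the junction protein gene Esam by -4.74 (SE 0.66), with adjusted p-values of 0.00035 and 0.000108. For Cd226, 3 counts over the 6 MLL-AF9 libraries against 713 in WT HSPCs gave a ratio of 496 (95% exact counting interval 169 to 2413). That interval pools the libraries of a group and leaves out the spread between them. Higher were the serotonin receptor Htr2a (3.69, SE 0.85), Jam3 (3.23, SE 0.48) and the adrenergic receptor Adra2a (2.69, SE 0.59), with adjusted p-values up to 0.00263.

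Of 23 tested genes of signalling inside platelets, 9 were lower and 7 higher (median -0.35). Both subunits of soluble guanylate cyclase, the nitric oxide sensor, were close to undetected in MLL-AF9 cells. Gucy1a1 had 665 counts in WT HSPCs and 2 in MLL-AF9 cells, a ratio of 694 (95% exact counting interval 191 to 5746), and Gucy1b1 had 591 and 1, a ratio of 1234 (221 to 48837). Neither interval covers the spread between libraries. The adaptor Lat changed by -3.84 (SE 0.52, adjusted p = 9.03e-05). The phospholipase Pla2g4a (3.72, SE 0.51), the G protein Gnaq (3.53, SE 0.39) and Vav3 (3.11, SE 0.45) were higher, with adjusted p-values up to 0.000141.

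In granule formation and secretion, 7 of 14 genes were lower and 3 higher (median -0.68). Slc35d3 (-3.56, SE 0.53, adjusted p = 0.000167), the dense granule gene Rab38 (-3.25, SE 1.11, adjusted p = 0.0227) and the secretion SNARE Vamp8 (-2.19, SE 0.33, adjusted p = 0.00017) were lower. Lyst (1.88, SE 0.56, adjusted p = 0.0117), Ap3b1 (1.40, SE 0.32, adjusted p = 0.00233) and the granule proteoglycan Srgn (1.27, SE 0.34, adjusted p = 0.00653) were higher.

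In the proplatelet cytoskeleton, 6 of 11 tested genes were lower and 1 higher (median -0.88). Myl9, the myosin light chain that Mylk phosphorylates, had a median of 21.1 CPM in WT HSPCs and 0 to 9 counts in MLL-AF9 libraries (-8.96, SE 1.05, adjusted p = 3.52e-05), the opposite direction to Mylk. Tubb2a (-3.73, SE 0.33, adjusted p = 5.02e-06) and Zyx (-2.44, SE 0.33, adjusted p = 9.85e-05) were lower and the actin cross-linker Actn1 was higher (1.09, SE 0.39, adjusted p = 0.0268).

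Of 11 tested genes on the list of other granule cargo, 6 were lower and 3 higher (median -1.63). Whether platelets store the product of each listed gene, such as Mmrn2, was not examined. Sparc (-8.21, SE 0.77), Pdgfb (-6.18, SE 1.04) and Ltbp1 (-5.76, SE 0.59) were lower, with adjusted p-values up to 0.000384. The growth factor gene Vegfa was higher (3.77, SE 0.41, adjusted p = 2.33e-05), as were Mmrn2 (2.96, SE 0.98, adjusted p = 0.0196) and Igf1 (2.08, SE 0.45, adjusted p = 0.00187). Sparc is also made by marrow stroma, whose markers were lower in the same cells. Under at least 1 alternative setting, the calls of Lyn, Stat5b, Htr2a, Lyst, Srgn, Rab38, Actn1, Mmrn2 and Igf1 were lost. No gene of the 7 lists was called between Mir139KO and WT HSPCs or between puro and neo cultures in edgeR.

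Loss of Mir139 was then examined in HSPCs. No platelet gene was called in Mir139KO against WT HSPCs. Of 28 genes tested, 13 had a positive and 15 a negative log2 fold change, the median was -0.06, and values ran from -1.34 (Mmrn1) to 0.27 (Selp). Over all 15056 genes tested, 0% were called in either direction by edgeR, 86 had an unadjusted p under 0.05 and DESeq2 and limma-voom called 0. Before adjustment, 0 of the 28 platelet genes had a p under 0.05. The smallest unadjusted p among the 28 was 0.268, for Plek (-0.40, SE 0.34), followed by Thbs1 (-0.52, SE 0.47) and Rab27b (-0.47, SE 0.46), all with an adjusted p of 1.00. The standard errors, 0.24 for Cd9 to 1.61 for Mmrn1 with a median of 0.46, set how small a change could have been seen. A change of a size near these errors was not detectable with 4 samples a group.

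The spread within the HSPC groups was larger than the difference between the genotypes. WT replicate 1 was the lowest of all 8 HSPC libraries for 22 of the 28 measured genes, whereas WT replicate 2 and Mir139KO replicate 1 were each the highest for 11. How often each library was lowest or highest over all genes was not counted, so these numbers are not particular to platelet genes as far as was examined. For Ppbp the 4 WT libraries spanned 13.1 to 98.3 CPM and the 4 Mir139KO libraries 28.8 to 49.2 CPM. Tubb1 spanned 11.6 to 54.3 CPM in WT and 18.0 to 40.4 CPM in Mir139KO HSPCs. Without WT replicate 1, 0 of the genes were called between the genotypes, and 18 were lower and 2 higher in MLL-AF9 cells than in WT HSPCs. Over all genes tested without it, 0 of 15185 were called between the genotypes. In MLL-AF9 cells, 4964 of 17630 were then lower and 5676 higher. Among the marker sums of WT replicate 1, those of mast cells and basophils (759 CPM), stroma (330 CPM) and endothelium (111 CPM) were the lowest of the 8 and that of monocytes and macrophages (1245 CPM) the highest, while erythroid (1704 CPM) and stem and progenitor markers (315 CPM) were within the range of the others. Their part in its low values was not tested.

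Part of the spread went with the Gm26917 share and the GC content of the transcripts. All 17 measured genes with at least 50% GC had a higher mean in the 4 high-share than in the 4 low-share HSPC libraries, and all 11 with less GC had a lower mean. The median log2 ratio was 0.73 in the former and -0.54 in the latter. Itga2b, Gp1bb, Gp5, Gp9, Vwf, P2rx1 and Nrgn were higher in every high-share than in every low-share library, and Plek, F13a1 and F5 were lower in every one. Over all 15056 genes tested in HSPCs, 30.1% were higher and 34.9% lower in this way, larger shares than the 7 and 3 of 28 seen here, so the pattern was one of the whole table. Of all genes with at least 50% GC, 80.3% had a higher mean in the high-share libraries, and of those with less GC 18.5% did. Across the 28 genes, which share the same 8 libraries and are not replicates, the ratio rose with GC (Spearman rho 0.87, Pearson r 0.80). For Itga2b, at 58.2% GC, the mean was 280 CPM in high-share and 134 CPM in low-share libraries. F13a1, at 45.9% GC, had 194 and 451 CPM. Over all genes, log2 fold changes of MLL-AF9 cells against WT HSPCs had a Spearman rho of -0.39 with GC. Against the low-share WT libraries alone, Itga2b changed by -4.33 (SE 0.67, adjusted p = 0.0017), and against the high-share libraries by -5.59 (SE 0.63, adjusted p = 9.77e-05). Against the low-share libraries, 18 platelet genes were lower and 2 higher, and over all 18331 genes tested 3821 were lower and 3844 higher. Against the high-share libraries, 18 platelet genes were lower and 3 higher, and over all 18244 genes tested 5432 were lower and 6020 higher.

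**Figure D4:**
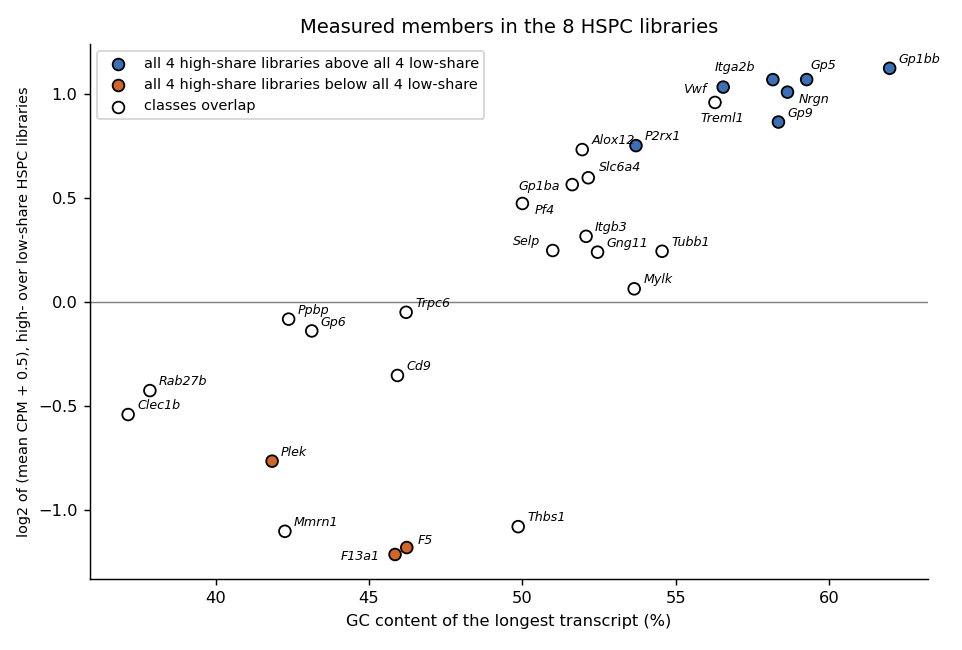
GC content of the longest transcript (x axis, %) against the log2 ratio of mean CPM + 0.5 between 4 high-share and 4 low-share HSPC libraries (y axis) for 28 genes. Genes at 50% GC or more lie above 0 and those under 50% lie below it; filled points are the 10 genes whose library classes do not overlap.

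The 2 vectors were compared last, since the cultures differed in selection drug. No platelet gene was called between puro and neo cultures at an adjusted p under 0.05, in a fit of 23 genes among 16503, of which 0.564% were higher and 0.309% lower in puro cultures. Before adjustment, 5 of the 23 had a p under 0.05, against 13.7% of all genes. DESeq2 called 2 as higher and 2 as lower, against 4.87% and 3.16% of all genes. Over all genes, the 93 higher and 51 lower calls became 0 without neo replicate 2 or 3, and 660 and 330 without puro replicate 2. With 3 against 3 cultures, levels did not overlap for 2 of the genes that were higher (Clec1b and Nrgn) and for 5 that were lower (Itgb3, Gp1bb, Alox12, F5 and Pf4), against 11.9% and 7.88% of all genes. The smallest p-values were those of Clec1b, Itgb3 and Gp1bb.

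Clec1b had 0.0969, 0.158 and 0.293 CPM in neo replicates 1 to 3, or 5 to 16 counts, and 4.34, 1.02 and 3.66 CPM in puro replicates 1 to 3. Puro replicates 1 and 3 thus had levels within the range of HSPCs, whereas all 3 neo cultures were under the lowest HSPC library. The log2 fold change was 4.05 (SE 0.77, unadjusted p = 0.00143, adjusted p = 0.079). DESeq2 called it (adjusted p = 3.31e-06), as did the fit of all 14 samples (adjusted p = 0.00393) and the fit without puro replicate 2 (4.47, SE 0.55, adjusted p = 0.0144).

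Itgb3 had 12.4, 17.5 and 7.70 CPM in neo and 2.74, 5.54 and 3.38 CPM in puro cultures (-1.71, SE 0.41, unadjusted p = 0.00468, adjusted p = 0.128). Gp1bb had 0.853, 0.455 and 0.586 CPM in neo cultures and 2, 0 and 5 counts in puro cultures (-3.72, SE 0.89, unadjusted p = 0.0047, adjusted p = 0.128). DESeq2 called both (adjusted p = 0.0018 and 0.00157). Both genes were thus lower in every puro culture, in contrast to Clec1b.

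**Figure D5:**
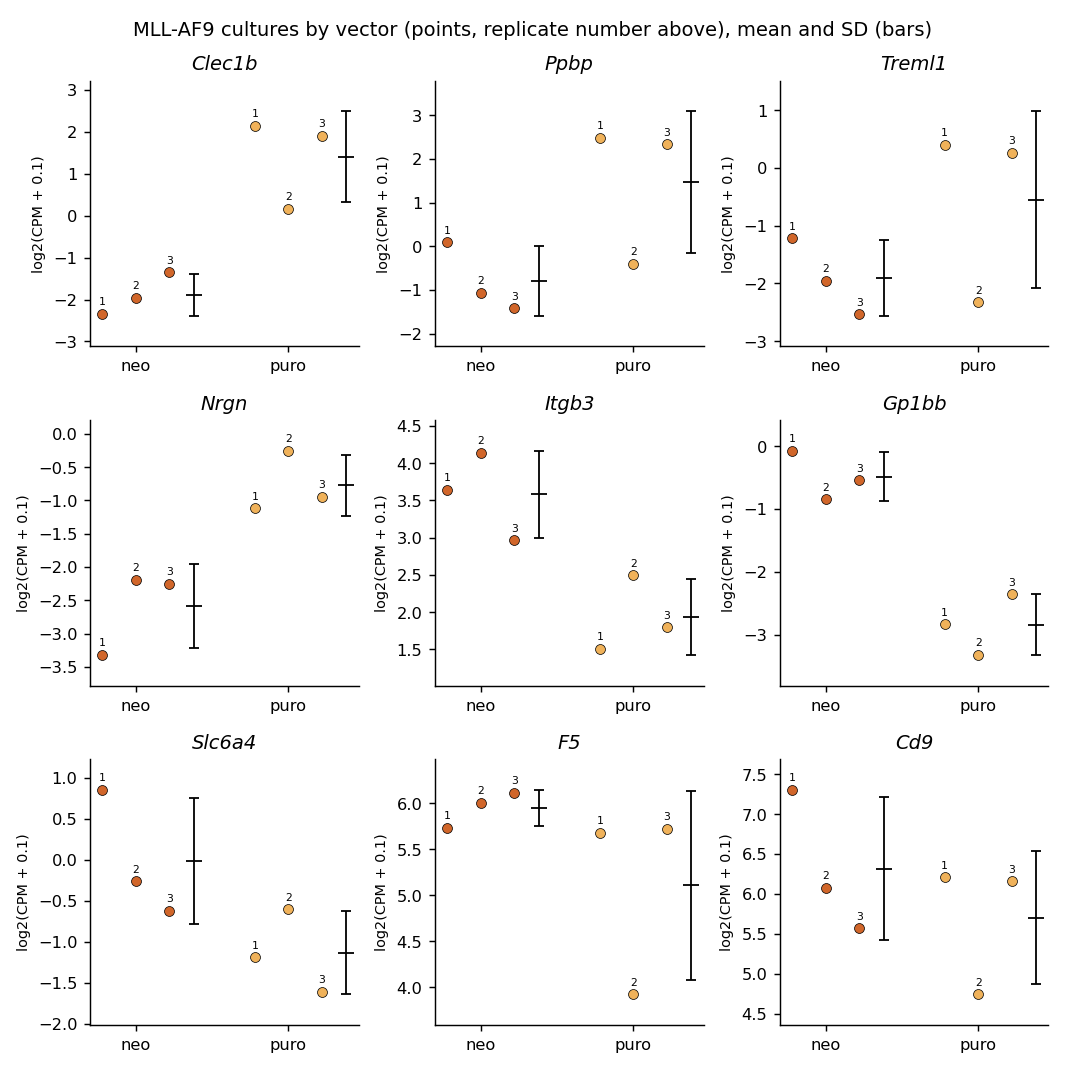
Level of 9 genes in the 6 MLL-AF9 cultures by vector as log2(CPM + 0.1), with replicate numbers and the mean and SD of each group. Clec1b and Nrgn are higher and Itgb3, Gp1bb and F5 lower in all 3 puro cultures; Ppbp and Treml1 are high in puro replicates 1 and 3 but not in puro replicate 2.

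Puro replicate 2 stood apart from the other puro cultures. Ppbp had 5.49, 0.660 and 4.94 CPM in puro replicates 1 to 3 and 0.969, 0.376 and 0.275 CPM in neo replicates 1 to 3. Treml1 had 1.22, 0.0999 and 1.10 CPM in puro replicates 1 to 3, and Rab27b had 27, 0 and 26 counts there against 0, 0 and 1 in neo cultures. Without puro replicate 2, Ppbp (3.30, SE 0.61, adjusted p = 0.0378) and Rab27b (5.92, SE 0.86, adjusted p = 0.0219) were higher in puro cultures beside Clec1b. Thbs1 was 3812 and 3857 CPM in puro replicates 1 and 3 and 700 CPM in puro replicate 2. Puro replicates 1 and 3 resembled each other more than any other pair of one group (Pearson r 0.998 of log2 CPM), although they differed by more than counting noise, with a chi-square of 9.12 per degree of freedom. Summed as 1 sample, which left 2 puro samples, 0 platelet genes were called between vectors. Over all 17363 genes tested, 4 were higher and 1 lower. Against WT HSPCs, this setting gave 18 platelet genes that were lower and 2 that were higher. Over all 16900 genes tested there, 4748 were lower and 5282 higher. In the same cultures, monocyte and macrophage markers were 348 and 333 CPM in puro replicates 1 and 3, 111 CPM in puro replicate 2 and 89.4 to 181 CPM in neo cultures, and mast cell and basophil markers were 63.2, 66.8, 25.1 and 11.4 to 22.4 CPM. Their part in the difference between cultures was not tested.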

How the data were processed

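Total RNA from 14 samples was sequenced after ribosomal depletion. The deposited values are raw counts per gene, which the authors made by mapping reads to GRCm38 with STAR 2.5.3e and counting with featureCounts 1.6.0 and a GENCODE annotation, as given in the paper's methods and the submitters' processing notes. Strand and overlap options were not given in the sources used here. The tables also hold 10 columns of a different series, which were left out. Gene positions and GC content were taken from GENCODE M21 on GRCm38, which held 52403 of 52550 identifiers.

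Each comparison used its 2 groups in edgeR 4.0.16 under R 4.3.3. TMM factors were applied, dispersions were estimated robustly, and a quasi-likelihood F test was run. A gene was tested if 10 counts or more were reached in a number of samples equal to the size of the smaller group, with Benjamini-Hochberg adjustment over all of them, and an adjusted p under 0.05 was called. SE was taken as the log2 change over the root of F. On simulated data, 200 of 200 changed genes were called in the MLL-AF9 and WT HSPC comparison (16841 genes, a log2 change of 2, a dispersion of 0.05), as were 4 unchanged genes. In each of the other 3 comparisons 200 of 200 changed and 10 unchanged genes were called (14907 genes for Mir139KO and WT HSPCs, 16688 for MLL-AF9 and Mir139KO HSPCs, 16317 for puro and neo). The simulated counts had the same dispersion for every gene and no high- or low-share classes. They therefore do not measure how large a change could be seen in the real samples. Alternatives used DESeq2 1.42.0, limma 3.58.1, other scalings, filters and subsets of samples.

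The genes, lists, motifs and rules were chosen with earlier results of these data known. All 30 genes were named. Where fewer than 3 were called, the 3 with the smallest p were given, and from each pathway list up to 3 called genes per direction with the largest fold change, except 1 gene that is not reported here. Intervals and limits cover counting error only, since no molecular identifiers were counted and reads may repeat 1 molecule.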

Additional observations from a re-analysis of the deposited data

Results flagged for a closer look

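In the 6 MLL-AF9 cultures, 5 values stood far from the others of the group, out of 84 sets of values examined, and chance gives about 1 in 20. Mylk had 393 CPM in puro replicate 2, against 50.2 to 108 CPM in the other cultures. F5 was lowest in that culture, with 15.1 CPM against 51.1 to 69.2 CPM. Neo replicate 1 was highest for Cd9, with 158 CPM against 26.7 to 73.9 CPM, for Slc6a4, with 1.71 CPM against 0.228 to 0.733 CPM, and for Tubb1, with 0.582 CPM (30 counts) against 0.0400 to 0.178 CPM. No value of the 4 WT or the 4 Mir139KO HSPC libraries was flagged, although some lay about as far from their group relative to its range. Pf4, for example, had 14.1 CPM in WT replicate 1 against 48.4 to 55.7 CPM in the other WT libraries.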

How the results depend on the processing

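Against WT HSPCs, 19 of 27 genes kept direction and call under all alternatives, and against Mir139KO HSPCs 19 of 27. None of the platelet genes called in these comparisons changed sign. Leaving out each library gave 2 to 4 higher genes against WT HSPCs (4 without puro replicate 2, which adds F5 and Cd9) and 0 to 3 between puro and neo cultures (3 without puro replicate 2). Without puro replicate 2, 5360 of all 16859 genes tested were higher against WT HSPCs, and 660 of 17222 were higher in puro cultures. Between puro and neo cultures DESeq2 called 2 higher and 2 lower, and the fit of all 14 samples 1 higher and 2 lower. Over all 16503 genes tested, DESeq2 called 804 higher and 522 lower, and the fit of all 14 samples 475 and 217. With total counts as the only scaling, the median over all genes against WT HSPCs was 0.69 on the log2 scale in place of 0.14, 6747 genes were higher and 3128 lower in place of 5603 and 5027, and 3 platelet genes were higher and 17 lower.

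Among platelet genes not called, 4 changed sign in the comparisons of MLL-AF9 cells with HSPCs. Plek against WT HSPCs was 0.12 with total counts, 0.17 against high-share libraries and 0.0041 for neo cultures (leaving out a library, -0.61 to 0.0213). P2rx1 was 0.61 with total counts, 0.0692 with the replicate block, 0.61 with GC correction, 0.63 with both, 0.42 against low-share libraries and 0.0357 with puro replicates 1 and 3 summed, a setting chosen after the data were seen (-0.25 to 0.0623). F13a1 was 0.41 with total counts, 0.0149 with a mean of at least 100 counts, 0.82 against high-share libraries and 0.29 for puro cultures (-0.30 to 0.28). The pathway gene Igf1, called higher, was -0.0659 with GC correction and block. Against Mir139KO HSPCs, Plek was -0.0783 with limma-voom, -0.16 with the block, -1.45 with GC correction, -1.55 with both, -0.19 against low-share libraries and -0.29 for puro cultures (-0.24 to 0.19). Cd9 was -0.0129 with GC correction and -0.18 with the block added. P2rx1 was 0.53 with total counts, 0.52 with GC correction, 0.41 with both and 0.0848 against low-share libraries. F13a1 was -0.0679 with limma-voom, -0.35 with GC correction, -0.31 with both, -0.25 against low-share libraries, -0.21 for neo cultures and -0.0177 with puro replicates 1 and 3 summed (-0.0842 to 0.34). Between the HSPC genotypes, where alternatives were run for Plek, Thbs1 and Rab27b, Rab27b ranged from -0.72 to 0.16 and was positive without WT replicate 2. The cause of these shifts was not tested.

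Replicate numbers were not taken to pair the samples, since not every pair of the groups compared was above 0.1. Same-numbered WT and Mir139KO libraries deviated with correlations of -0.68, 0.77, -0.71 and 0.60, neo and puro cultures with 0.54, 0.45 and -0.42, WT HSPCs with neo at -0.0114, 0.15 and -0.0878 and with puro at 0.0141, 0.17 and 0.0753, and Mir139KO HSPCs with neo at 0.23, 0.15 and 0.11 and with puro at 0.17, 0.11 and -0.12. With the replicate block, 17 platelet genes were lower and 2 higher against WT HSPCs, where 4246 of all 17077 genes were lower and 4666 higher. Against Mir139KO HSPCs, 19 were lower and 2 higher, where 5040 of all 16953 genes were lower and 5668 higher. In the other comparisons 0 were called. Over all genes with the block, 0 of 15056 were called between the genotypes. Between vectors, 153 of 16503 were higher and 61 lower in puro cultures. Depth limits genes near 3 counts per library, such as Trpc6, Gp6 and Tubb1 in MLL-AF9 cells.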
